A study of Mus musculus with 12 samples.

Results

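The 9 genes of secreted neurotrophic and growth factors were followed through the spinal cord of SOD1-G93A mice with and without Plekhg5: Igf1, Hgf, Vegfa, Vegfb, Bdnf, Ntf3, Gdnf, Cntf and Lif. They were taken by gene symbol from the deposited table, in which 9 of 9 symbols were found among 45906 genes. Each genotype was represented by 3 mice aged 7 months: Plekhg5+/+, Plekhg5-/-, Plekhg5+/+ SOD1-G93A and Plekhg5-/- SOD1-G93A. Per the study's methods the mice were on a C57BL/6 background, and the transgene was the low-copy form of human SOD1 with the G93A mutation, which causes slowly progressing motoneuron disease. Poly-A RNA of the whole cord was sequenced, so that fewer cells of a type and less RNA per cell cannot be told apart.

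These factors reach motoneurons from glia, vessels, muscle and the neurons themselves, and are known for supporting survival and sprouting. BDNF and NT-3, encoded by Bdnf and Ntf3, act on Trk receptor tyrosine kinases and on p75, and GDNF acts on Ret together with a GFRα coreceptor. CNTF and LIF, both of the interleukin-6 family, share the receptor subunits encoded by Lifr and Il6st. IGF-1, HGF and VEGF-A signal through the tyrosine kinases encoded by Igf1r, Met and Kdr, whereas VEGF-B binds the kinase encoded by Flt1.

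The 12 libraries held 30415643 to 38743628 counts. Plekhg5 was at 3.28 to 4.72 CPM (counts scaled to library size with TMM normalization) in the 6 knockout libraries and at 19.4 to 25.0 CPM in the 6 others, and human SOD1 was at 4421 to 5638 CPM in transgenic and at most 5.47 CPM in non-transgenic libraries. Markers of neurons, motoneurons and oligodendrocytes were present in each library. Libraries with Y-linked transcripts were 3 of 3 in Plekhg5+/+, 2 of 3 in Plekhg5-/-, 2 of 3 in Plekhg5+/+ SOD1-G93A and 1 of 3 in Plekhg5-/- SOD1-G93A mice. Plekhg5+/+ SOD1-G93A replicate 1 stood apart in the summed level of 12 microglial and macrophage markers, which was 1267 CPM there. In the other Plekhg5+/+ SOD1-G93A libraries it was 655 and 696 CPM, and in Plekhg5+/+ libraries 342 to 387 CPM. Over the genes tested, libraries of a genotype were compared in pairs by chi-square per degree of freedom. In Plekhg5+/+ mice it was 22.6 and 23.3 for pairs with replicate 1 and 7.32 for replicates 2 and 3. The same pairs gave 22.5 and 27.5 against 7.48 in Plekhg5-/-, and 16.4 and 20.9 against 16.2 in Plekhg5+/+ SOD1-G93A mice. In Plekhg5-/- SOD1-G93A mice they gave 8.51 and 7.59 against 5.68.

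The spinal cord transcribed these genes at very unequal levels. Compared per length of exon in Plekhg5+/+ mice, the mean levels ran from 54.3 ± 3.23 CPM per kb (SD, n = 3) for Vegfb to 0.0644 ± 0.0179 CPM per kb for Gdnf. Between these lay Vegfa at 20.4 ± 2.20, Cntf at 4.48 ± 1.19, Bdnf at 1.69 ± 0.251, Igf1 at 1.28 ± 0.0421, Hgf at 0.254 ± 0.0403, Lif at 0.140 ± 0.0186 and Ntf3 at 0.139 ± 0.0503 CPM per kb. Neighbours in this order did not overlap between the 3 libraries, except for Lif and Ntf3. The low members rested on few reads, with 4 to 12 counts per library for Gdnf, 2 to 12 for Ntf3, 23 to 116 for Lif and 30 to 124 for Hgf. The level of Cntf also depends on how reads on several places or genes were counted. All 9 members passed the filter on low counts.

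**Figure D1:**
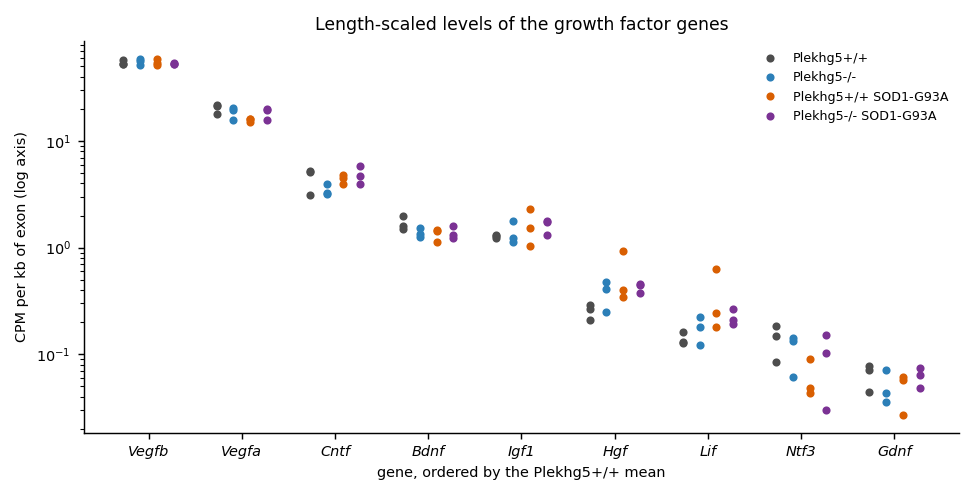
Levels of the 9 genes in CPM per kb of exon on a log axis, in the order of the Plekhg5+/+ mean, with 1 point per library and a colour per genotype. Vegfb (54.3 CPM per kb) and Vegfa (20.4 CPM per kb) lead the order and Gdnf (0.0644 CPM per kb) ends it.

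With Plekhg5 intact, the SOD1-G93A transgene went with higher values of Lif and Hgf and lower values of Vegfa and Bdnf, without a member past the threshold of adjusted p 0.05 (edgeR's quasi-likelihood test with Benjamini-Hochberg adjustment over 20155 genes). For 4 of 9 members the Plekhg5+/+ SOD1-G93A and Plekhg5+/+ libraries did not overlap, 2 higher and 2 lower; this held for 20.6% of the genes tested, 11.6% higher and 9.02% lower. An unadjusted p under 0.05 was likewise found for 4 of 9 members and for 18.2% of genes, while 2.47% of genes were called after adjustment. The median log2 fold change was -0.02 over the members and -0.00099 over the genes tested.

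Upstream sequence is shown for the 4 members whose groups did not overlap, as 250 bases before the first annotated start in RefSeq (GRCm38.p6), 5′ to 3′ on the strand of the gene. All 9 members had such windows, 19 in number because of alternative starts. Capitals mark matches on either strand to GGGCGG (GC box), ACGTG (core of the hypoxia element), TTCNNNGAA (STAT), TGANTCA (AP-1), TGACGTCA (CRE) or TATAAA (the TATA box), which were found in 32.7%, 16.6%, 7.02%, 6.75%, 1.55% and 12.4% of 32851 such windows. The CRE is a palindrome that contains no other of these motifs in full.
Vegfa, chr17:46032378-46032627, minus strand: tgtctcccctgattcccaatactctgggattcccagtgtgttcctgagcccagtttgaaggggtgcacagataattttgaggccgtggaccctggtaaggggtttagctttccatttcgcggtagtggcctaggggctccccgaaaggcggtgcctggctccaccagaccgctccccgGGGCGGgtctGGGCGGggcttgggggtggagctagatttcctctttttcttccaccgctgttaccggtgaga
Lif, chr11:4257318-4257567, plus strand: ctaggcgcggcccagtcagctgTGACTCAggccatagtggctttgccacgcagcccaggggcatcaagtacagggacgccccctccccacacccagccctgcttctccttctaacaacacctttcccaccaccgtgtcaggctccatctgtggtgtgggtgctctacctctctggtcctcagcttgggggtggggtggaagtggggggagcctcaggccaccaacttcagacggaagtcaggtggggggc
Hgf, chr5:16553245-16553494, plus strand: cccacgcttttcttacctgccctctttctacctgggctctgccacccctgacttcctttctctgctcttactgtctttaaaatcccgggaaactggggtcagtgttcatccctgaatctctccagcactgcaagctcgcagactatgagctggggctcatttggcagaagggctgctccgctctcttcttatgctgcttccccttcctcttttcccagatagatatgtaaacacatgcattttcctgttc
Bdnf, chr2:109674450-109674699, plus strand: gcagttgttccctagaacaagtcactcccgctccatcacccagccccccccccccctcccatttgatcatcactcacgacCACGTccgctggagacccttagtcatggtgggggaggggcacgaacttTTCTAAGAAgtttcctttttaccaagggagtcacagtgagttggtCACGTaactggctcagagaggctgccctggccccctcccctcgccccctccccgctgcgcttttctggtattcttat
The Vegfa window held 2 matches, both GC boxes, and the Lif window 1 match, of the AP-1 motif. In the Bdnf window 3 matches were found, of the hypoxia core and of the STAT motif, and in the Hgf window 0. Such matches describe the sequence and say nothing of binding.

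Lif encodes leukaemia inhibitory factor, a cytokine induced in glia and Schwann cells after nerve injury. Its gene occupies chr11:4257568-4272514. Plekhg5+/+ mice had 0.725, 0.913 and 0.735 CPM, and Plekhg5+/+ SOD1-G93A mice 3.60, 1.39 and 1.02 CPM. Each of these transgenic libraries exceeded each control, but replicate 1 was far above the others. In Plekhg5-/- mice Lif was at 1.02, 0.693 and 1.26 CPM, and in Plekhg5-/- SOD1-G93A mice at 1.51, 1.09 and 1.19 CPM, so that these genotypes overlapped. The log2 fold change of SOD1-G93A with Plekhg5 intact was 1.34 (SE 0.405, adjusted p = 0.101 with edgeR), a 2.53-fold difference with a 95% interval of 1.38 to 4.65. DESeq2, the tool of the study, gave an adjusted p of 0.0337 with and 0.0427 without its prior on fold changes. Without Plekhg5+/+ SOD1-G93A replicate 1 the edgeR value was 0.60, and DESeq2 with its prior gave an adjusted p of 0.536.

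Hgf, on chr5:16553495-16619439, encodes hepatocyte growth factor, a ligand trophic for motoneurons that is cleaved outside the cell before it activates Met. It was at 0.870, 1.102 and 1.19 CPM in Plekhg5+/+ mice and at 3.85, 1.65 and 1.44 CPM in Plekhg5+/+ SOD1-G93A mice. As for Lif, replicate 1 carried the highest value, and the remaining 2 transgenic libraries were still above the controls. The values of 1.02, 1.69 and 1.99 CPM in Plekhg5-/- mice spanned the 1.91, 1.55 and 1.84 CPM of Plekhg5-/- SOD1-G93A mice. The log2 fold change with Plekhg5 intact was 1.13 (SE 0.353, adjusted p = 0.110 with edgeR), and it was 0.55 without Plekhg5+/+ SOD1-G93A replicate 1.

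Igf1 (chr10:87858265-87937047), the insulin-like growth factor gene expressed by neurons and by activated microglia, overlapped between SOD1-G93A mice and their controls, with and without Plekhg5. Plekhg5+/+ libraries lay close together at 10.7, 11.4 and 11.3 CPM. Plekhg5+/+ SOD1-G93A libraries were at 20.1, 8.98 and 13.3 CPM, both the highest and the lowest value of the 12. In Plekhg5-/- mice it was at 9.80, 15.6 and 10.8 CPM and in Plekhg5-/- SOD1-G93A mice at 11.4, 15.4 and 15.1 CPM. The log2 fold change of SOD1-G93A with Plekhg5 intact was 0.34 (SE 0.249, adjusted p = 0.509 with edgeR), with a 95% interval of -0.20 to 0.89, and 0.0019 without Plekhg5+/+ SOD1-G93A replicate 1.

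Igf1, Hgf and Lif shared the library of their highest value with the microglial markers. For Igf1 other libraries went differently. In Plekhg5+/+ SOD1-G93A replicate 2 the markers summed to 655 CPM and Igf1 was at 8.98 CPM, its lowest value. In Plekhg5-/- replicate 2 the markers summed to 442 CPM and Igf1 was at 15.6 CPM. Of these 12 markers 11 were called higher in Plekhg5+/+ SOD1-G93A than in Plekhg5+/+ mice and none lower, and none was at 0 in a library. Their sums were 371 to 505 CPM in Plekhg5-/- and 486 to 544 CPM in Plekhg5-/- SOD1-G93A mice. Summed levels of 8 astrocyte markers, 3 of them called higher, were 5192 to 5241 CPM in Plekhg5+/+ and 6477 to 10107 CPM in Plekhg5+/+ SOD1-G93A mice. Summed levels of 8 fibroblast and meningeal markers in replicates 1, 2 and 3 were 831, 999 and 864 CPM in Plekhg5+/+ mice. They were 761, 1048 and 758 CPM in Plekhg5-/-, 857, 701 and 1223 CPM in Plekhg5+/+ SOD1-G93A, and 857, 1516 and 1279 CPM in Plekhg5-/- SOD1-G93A mice. The part of these cell types in the 3 genes was not tested.

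**Figure D2:**
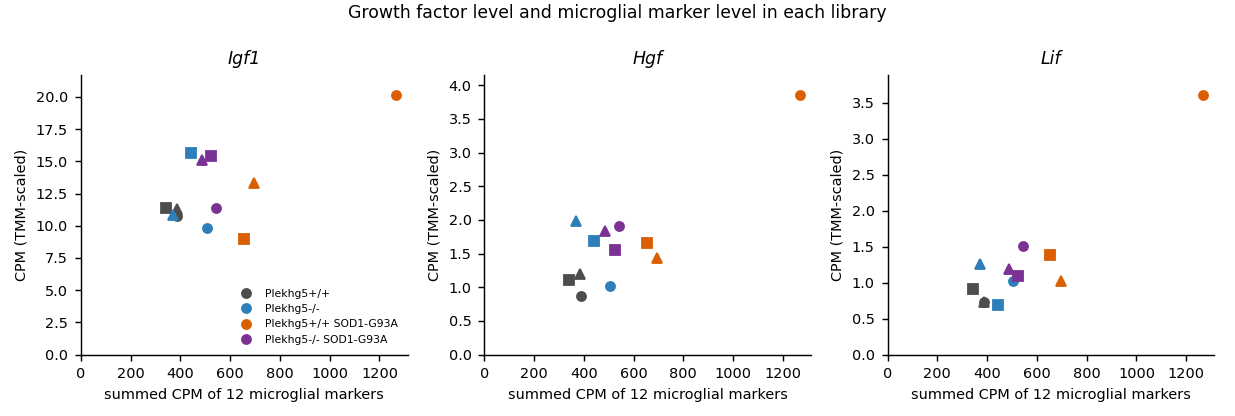
CPM of Igf1, Hgf and Lif against the summed CPM of 12 microglial and macrophage markers, with 1 point per library (colour: genotype; circle, square and triangle: replicates 1, 2 and 3). Plekhg5+/+ SOD1-G93A replicate 1, at 1267 CPM of the markers, has the highest value of all 3 genes.

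Vegfa and Vegfb, 2 vascular endothelial growth factors that also act on neurons, were the most abundant members and differed in their pattern. Vegfa (chr17:46016993-46032377) was at 89.3, 91.7 and 74.8 CPM in Plekhg5+/+ mice and at 66.5, 67.0 and 62.5 CPM in Plekhg5+/+ SOD1-G93A mice. All 3 transgenic libraries were below the lowest control and lay close together. Plekhg5-/- mice had 65.2, 82.4 and 84.9 CPM, and Plekhg5-/- SOD1-G93A mice 82.2, 83.6 and 66.1 CPM, without a visible shift. The log2 fold change with Plekhg5 intact was -0.38 (SE 0.114, adjusted p = 0.0976 with edgeR), corresponding to 0.766 of the control level with a 95% interval of 0.645 to 0.910. Here too DESeq2 called the gene, with adjusted p 0.0282 with and 0.0295 without its prior. Without Plekhg5+/+ SOD1-G93A replicate 1 the value was about as large, -0.40 with edgeR (adjusted p = 0.243) and -0.29 against -0.31 in DESeq2 with its prior, whose adjusted p was then 0.123.

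Vegfb (chr19:6982472-6987651) was the steadiest member, with its highest library 1.16 times its lowest. Its values were 74.4, 66.9 and 67.4 CPM in Plekhg5+/+, 75.9, 71.9 and 66.4 CPM in Plekhg5-/-, 65.5, 69.1 and 76.0 CPM in Plekhg5+/+ SOD1-G93A, and 67.2, 69.1 and 67.7 CPM in Plekhg5-/- SOD1-G93A mice. The 95% interval of its log2 fold change with Plekhg5 intact was -0.14 to 0.17. Endothelial markers, 8 in number, had sums of 104 to 110 CPM in Plekhg5+/+ and 90.7 to 106 CPM in Plekhg5+/+ SOD1-G93A mice, and 0 of them was called. Of 11 genes of the hypoxia response, which controls Vegfa, 0 were called with edgeR, with log2 fold changes of -0.35 to 0.29.

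Bdnf (chr2:109674700-109727043), the neurotrophin of activity-dependent plasticity, was at 13.3, 10.8 and 10.01 CPM in Plekhg5+/+ mice and at 9.67, 7.66 and 9.87 CPM in Plekhg5+/+ SOD1-G93A mice. The groups did not overlap, but the nearest libraries were almost equal. Plekhg5-/- mice were at 8.40, 9.01 and 10.3 CPM, and Plekhg5-/- SOD1-G93A mice at 8.79, 10.7 and 8.31 CPM. Both overlapped the transgenic mice with Plekhg5 and also the Plekhg5+/+ mice. The log2 fold change of SOD1-G93A with Plekhg5 intact was -0.33 (SE 0.140, adjusted p = 0.239 with edgeR), and that of Plekhg5 loss without the transgene -0.30 (SE 0.140, adjusted p = 0.929). Without Plekhg5+/+ replicate 1, the library with the highest Bdnf value, they were -0.20 and -0.18. Summed levels of 8 neuron markers were 10080 to 10130 CPM in Plekhg5+/+ and 7839 to 9315 CPM in Plekhg5+/+ SOD1-G93A mice, without overlap; 0 of the 8 had a positive log2 fold change and 0 were called. They were 9471 to 9992 CPM in Plekhg5-/- and 8632 to 9828 CPM in Plekhg5-/- SOD1-G93A mice, and their part in the Bdnf values was not tested.

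The second neurotrophin, Ntf3 (chr6:126101412-126166772), was measured with so few reads that large differences would go undetected. It was at 0.174, 0.378 and 0.306 CPM in Plekhg5+/+ and at 0.186, 0.0990 and 0.0900 CPM in Plekhg5+/+ SOD1-G93A mice, with overlap. Plekhg5-/- mice had 0.293, 0.271 and 0.126 CPM and Plekhg5-/- SOD1-G93A mice 0.0617, 0.213 and 0.311 CPM. The 95% interval of the log2 fold change with Plekhg5 intact, -2.36 to 0.05, left room for a loss of most transcripts as well as for none.

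Gdnf (chr15:7810048-7837580), named after the glial cell line from which the factor was purified, was the member with the lowest level per kb of exon. In CPM Ntf3 was lower, with a median of 0.199 over the 12 libraries against 0.290 for Gdnf. Gdnf lay between 0.214 and 0.378 CPM in Plekhg5+/+ and between 0.176 and 0.347 CPM in Plekhg5-/- mice. It lay between 0.132 and 0.300 CPM in Plekhg5+/+ SOD1-G93A and 0.233 and 0.364 CPM in Plekhg5-/- SOD1-G93A mice, and the 4 genotypes overlapped. Its log2 fold change with Plekhg5 intact was -0.38, with a 95% interval of -1.23 to 0.46.

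Cntf (chr19:12763528-12765632) encodes ciliary neurotrophic factor, which Schwann cells and astrocytes store in the cytoplasm. Its span overlaps that of the readthrough gene Gm44505 on the same strand, and 11 of its 12 counts were not whole. Reads on several places or genes were split as fractions, and whether exons are shared was not tested. The level of Cntf therefore depends on how such reads were counted. Values were 6.29, 6.16 and 3.74 CPM in Plekhg5+/+, 4.78, 3.85 and 3.92 CPM in Plekhg5-/-, 5.79, 4.80 and 5.43 CPM in Plekhg5+/+ SOD1-G93A, and 5.70, 4.72 and 7.01 CPM in Plekhg5-/- SOD1-G93A mice. The SOD1-G93A groups overlapped their controls. Without Plekhg5 the log2 fold change of SOD1-G93A was 0.48 (SE 0.198, unadjusted p = 0.0314 and adjusted p = 0.892 with edgeR). Summed Schwann cell markers were 872 to 1041 CPM in Plekhg5-/- and 1037 to 1233 CPM in Plekhg5-/- SOD1-G93A mice. The log2 fold changes of these 8 markers had a median of 1.27 and ran from -0.13 to 2.76, with 6 of 8 positive and 0 called, and their part in the Cntf value was not tested.

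**Figure D3:**
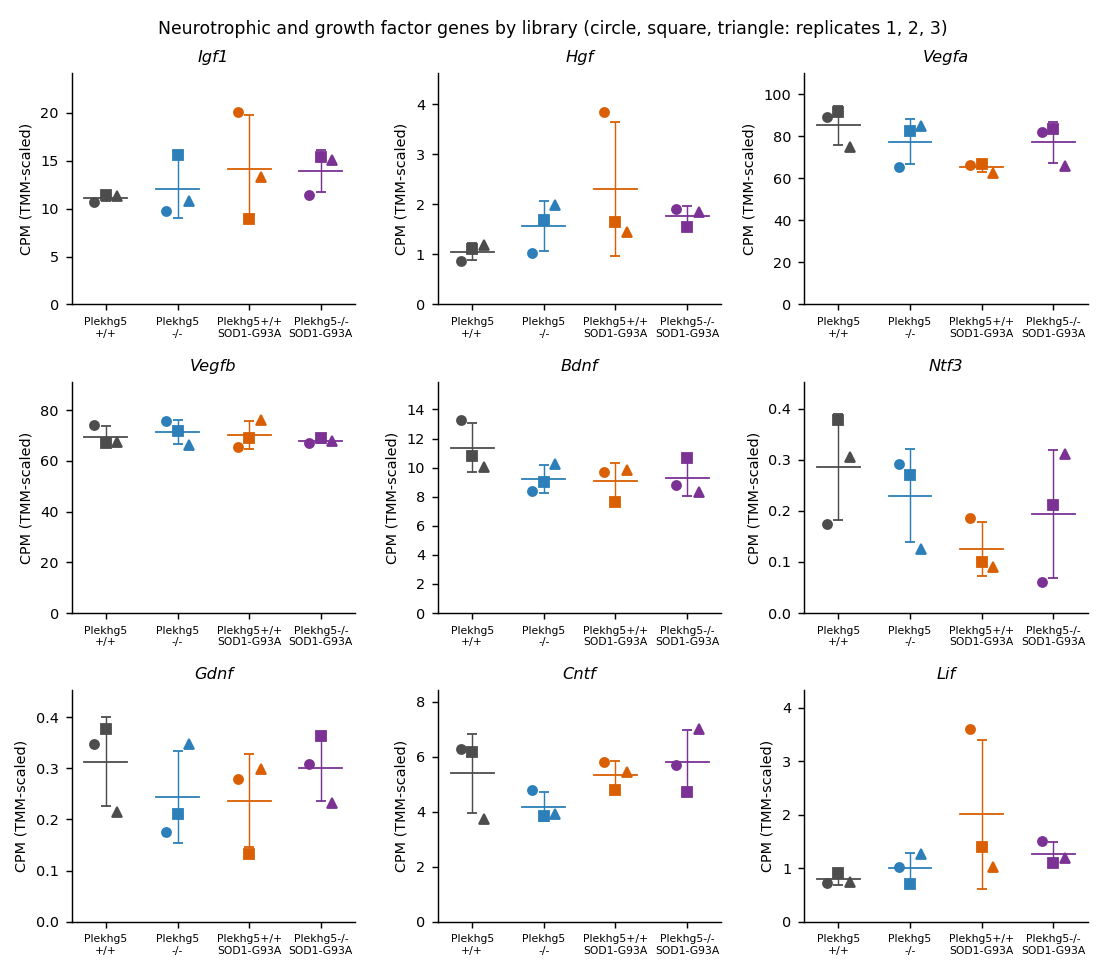
CPM of the 9 genes in each library by genotype, with axes from 0; circle, square and triangle are replicates 1, 2 and 3, and bars give mean and SD. Lif, Hgf and Igf1 reach 3.60, 3.85 and 20.1 CPM in Plekhg5+/+ SOD1-G93A replicate 1, and the 3 Vegfa values of that genotype, 62.5 to 67.0 CPM, lie under the lowest control.

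In the other comparisons no member stood out. Without Plekhg5, the transgene changed 0 of 9 members (0.00496% of genes were called) and 0 of 9 were free of overlap (12.5% of genes), with 1 unadjusted p under 0.05 (5.38% of genes). Loss of Plekhg5 in SOD1-G93A mice gave 0 of 9 calls (0.0347% of genes) and 0 of 9 without overlap (19.5% of genes), and loss of Plekhg5 without the transgene 0 of 9 (0.0298% and 8.74% of genes), in both with 0 unadjusted p under 0.05 by edgeR (8.64% and 5.32% of genes). DESeq2 with and without its prior also called 0 of 9 in these 3 comparisons.

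Loss of Plekhg5 in SOD1-G93A mice went with log2 fold changes of -0.66 (SE 0.384) for Lif and -0.39 (SE 0.336) for Hgf, with adjusted p of 0.613 and 0.723 (edgeR). For Vegfa it was 0.24 (SE 0.114, adjusted p = 0.577 with edgeR). In this comparison 8 of 8 endothelial markers had a positive log2 fold change, with a median of 0.51, and 0 were called; their sums were 117 to 155 CPM in Plekhg5-/- SOD1-G93A mice, above the 90.7 to 106 CPM of Plekhg5+/+ SOD1-G93A mice, and 77.1 to 129 CPM in Plekhg5-/- mice. Their part in the Vegfa value was not tested. Without Plekhg5+/+ SOD1-G93A replicate 1 the values of Lif and Hgf changed sign, to 0.07 and 0.19, while that of Vegfa kept its direction with each library left out. Both this comparison and the SOD1-G93A effect with Plekhg5 intact use the Plekhg5+/+ SOD1-G93A libraries, so that their values for a member are not independent.

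The interaction asked whether the SOD1-G93A effect differed between mice with and without Plekhg5. It was called for 0 of 9 members, and for 0% of genes (9.05% had an unadjusted p under 0.05). Among the members the smallest p belonged to Vegfa, with a log2 difference of 0.38 (SE 0.161, unadjusted p = 0.0353 and adjusted p = 0.512 with edgeR). For Lif it was -0.99 with a 95% interval of -2.23 to 0.25, and for Hgf -0.96 with an interval of -2.02 to 0.11.

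**Figure D4:**
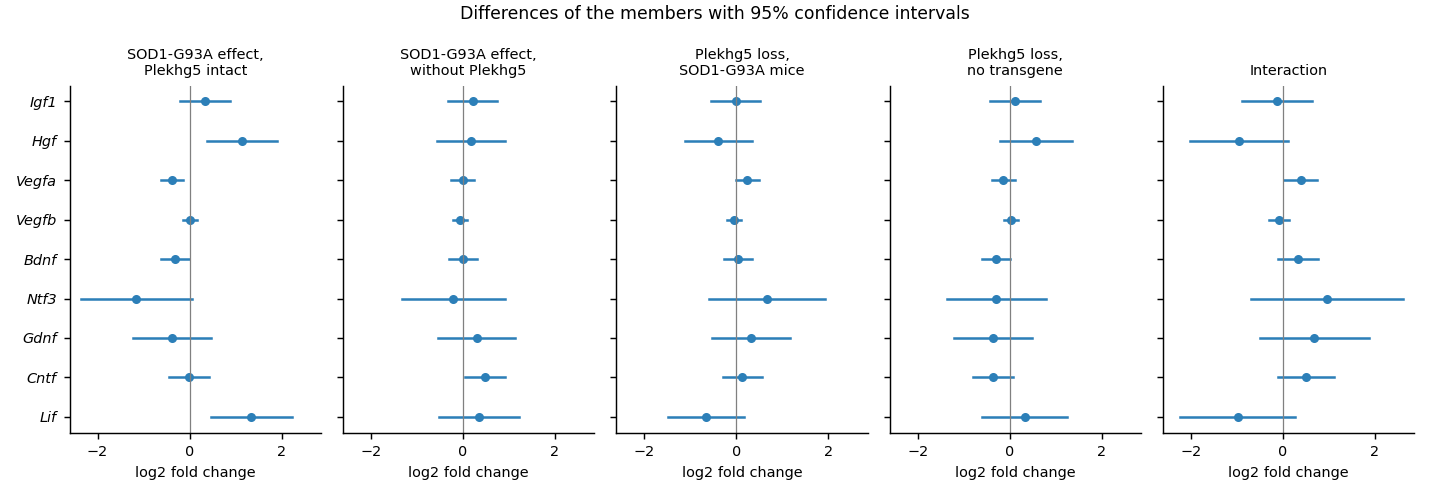
Log2 fold changes of the 9 genes with 95% confidence intervals from edgeR in the 4 comparisons and the interaction. With Plekhg5 intact, the intervals of Lif (0.46 to 2.22), Hgf (0.37 to 1.90), Vegfa (-0.63 to -0.14) and Bdnf (-0.63 to -0.02) exclude 0 before adjustment.

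Around the 9 ligands, 84 further genes of their pathways were listed, 83 were found and 75 tested. With Plekhg5 intact, SOD1-G93A raised 3 of them and lowered 1, which is 5.33% of the 75 against 2.47% of genes tested. The lists were chosen with earlier results of these data known, so that these shares are no test of the pathways. In the 4 other comparisons 0 of 75 were called with edgeR. The called genes belonged to the CNTF and LIF family and to the HGF pathway.

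Among 11 other ligands 1 was higher. Osm, encoding oncostatin M, a cytokine of the LIF family made by myeloid cells, was at 0.145, 0.157 and 0.184 CPM in Plekhg5+/+ and at 1.06, 0.693 and 0.480 CPM in Plekhg5+/+ SOD1-G93A mice. This was a log2 fold change of 2.17 (SE 0.382, adjusted p = 0.0165 with edgeR). It rested on few reads, 5, 5 and 6 counts against 34, 21 and 16. An alternative filter of at least 10 counts in every library removed Osm. In Plekhg5-/- mice it was at 0.205, 0.121 and 0.0947 CPM, and in Plekhg5-/- SOD1-G93A mice at 0.247, 0.425 and 0.285 CPM. These groups did not overlap either (12.5% of genes), without a call.

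Of the 5 CNTF and LIF receptor genes 1 was lower. Lifr, encoding the LIF receptor, was at 103, 111 and 105 CPM in Plekhg5+/+ and at 83.7, 87.8 and 77.8 CPM in Plekhg5+/+ SOD1-G93A mice, a log2 fold change of -0.36 (SE 0.0617, adjusted p = 0.0155 with edgeR). The knockout groups lay between these, at 89.7, 92.6 and 97.9 CPM in Plekhg5-/- and 92.2, 90.2 and 96.9 CPM in Plekhg5-/- SOD1-G93A mice. Its interaction was 0.35 on the log2 scale (SE 0.0872, unadjusted p = 0.00146 and adjusted p = 0.338 with edgeR). Cntfr and Il6st, the other subunits of the CNTF receptor, had log2 fold changes of -0.12 and 0.05 with adjusted p of 0.498 and 0.806 (edgeR).

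Met, the HGF receptor, was at 7.25, 7.24 and 6.71 CPM in Plekhg5+/+ and at 16.6, 10.8 and 8.79 CPM in Plekhg5+/+ SOD1-G93A mice, with a log2 fold change of 0.77 (SE 0.180, adjusted p = 0.0456 with edgeR). It followed Hgf in that replicate 1 was highest, and without that library its value was 0.47 (adjusted p = 0.0999 with edgeR). Plau, encoding urokinase, a protease that can activate HGF and plasminogen, was at 1.83, 1.83 and 2.48 CPM against 17.3, 7.23 and 5.52 CPM, with a log2 fold change of 2.29 (SE 0.375, adjusted p = 0.0146 with edgeR). Of the 8 proteases and inhibitors of factor processing that were tested, Plau was the 1 called, and their log2 fold changes ran from -0.17 to 2.29. In Plekhg5-/- mice Plau was at 2.98, 2.74 and 1.86 CPM and Met at 7.55, 9.22 and 8.46 CPM. In Plekhg5-/- SOD1-G93A mice Plau was at 4.93, 4.19 and 3.57 CPM and Met at 10.2, 10.5 and 9.97 CPM. Both genes were thus higher with the transgene and without overlap also in mice without Plekhg5, though not called. Absence of overlap held for 12.5% of the genes tested there.

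**Figure D5:**
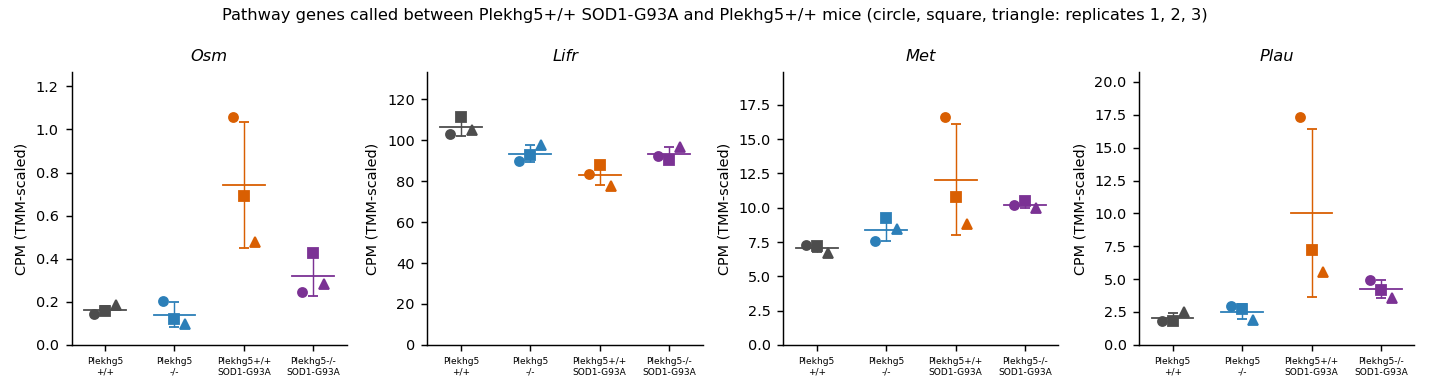
CPM of the 4 pathway genes called between Plekhg5+/+ SOD1-G93A and Plekhg5+/+ mice, in each library by genotype, with axes from 0; symbols are replicates 1, 2 and 3, and bars give mean and SD. Osm, Met and Plau are higher and Lifr is lower in all 3 Plekhg5+/+ SOD1-G93A libraries than in each Plekhg5+/+ library.

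The 4 calls rested on the fit of the 4 genotypes together. With the libraries of those 2 genotypes alone, the log2 fold changes of Osm, Lifr, Plau and Met were nearly the same, 2.16, -0.37, 2.27 and 0.75, but the adjusted p were 0.0758, 0.0898, 0.0983 and 0.132 with edgeR. Without Plekhg5+/+ replicate 1 or without Plekhg5+/+ replicate 2 the 4 genes were not called either, although their log2 fold changes were 2.10 and 2.15 for Osm, -0.38 and -0.33 for Lifr, 2.21 and 2.22 for Plau and 0.79 in both for Met. The whole table then held 4 and 2 called genes, against 498 with all libraries. Met was not called either without Plekhg5+/+ replicate 3 (0.72, adjusted p = 0.0963 with edgeR) or with Y-linked transcripts as a covariate (0.77, adjusted p = 0.0560 with edgeR). Without Plekhg5+/+ SOD1-G93A replicate 1, Plau, Osm and Lifr were still called with edgeR, with log2 fold changes of 1.64, 1.83 and -0.36.

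Receptors of the other members were measured without a call by edgeR. With Plekhg5 intact the log2 fold changes of SOD1-G93A were -0.01 for Ntrk2, the BDNF receptor, 0.58 for Ngfr (p75), -0.08 for Ret, -0.25 for Igf1r, -0.39 for Flt1 and 0.04 for Kdr, with adjusted p from 0.0976 for Ngfr to 0.960 for Kdr (edgeR). Ngfr was at 3.22 to 5.18 CPM in Plekhg5+/+ and 5.53 to 7.06 CPM in Plekhg5+/+ SOD1-G93A mice. Flt1 was at 73.3 to 90.7 and 51.5 to 69.7 CPM, and both were without overlap (20.6% of genes). Ret is also a marker of motoneurons, for which the sum of 8 markers was 441 to 478 CPM in Plekhg5+/+ and 345 to 452 CPM in Plekhg5+/+ SOD1-G93A mice. Of these 8 markers 0 had a positive log2 fold change, with a median of -0.34, and 1 was called lower. Of 6 neurotrophin receptors, 6 GDNF family receptors, 3 IGF receptors, 5 VEGF receptors, 8 IGF-binding proteins and 10 signalling genes tested, 0 were called with edgeR.

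For each member the 2 genes with the most similar profile of log2 CPM over the 12 libraries were sought among 20154 others, as a description. Lif went with Mtpn (Pearson r = 0.973, Spearman rho = 0.839) and Knl1 (r = 0.963, rho = 0.979), and Hgf with Prss35 (r = 0.963, rho = 0.839) and Aim2 (r = 0.944, rho = 0.909). Without the 2 libraries farthest from the median of the member, these r were 0.890, 0.920, 0.891 and 0.823. Vegfa was most like Dgcr8 (r = 0.960, rho = 0.860) and Krit1 (r = 0.939, rho = 0.965), Vegfb like Hint2 (r = 0.969) and Gm4853 (r = 0.961), and Bdnf like Srsf10 (r = 0.956) and Zc3h8 (r = 0.930). For Igf1 these genes were Ppl (r = 0.889) and Fmod (r = 0.881), for Cntf Il16 (r = 0.891) and Fut8 (r = 0.879), for Ntf3 Rnaseh1 (r = 0.884) and Klhl28 (r = 0.884), and for Gdnf Map3k8 (r = 0.856) and A630089N07Rik (r = 0.856). The points share library and depth, and each pair is the most similar out of all genes searched.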

How the data were processed

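Spinal cord RNA of 12 mice, 3 per genotype, was analysed. According to the submitters' processing notes and the study's methods, reads were demultiplexed with bcl2fastq 2.20.0.422, trimmed with Cutadapt 2.4, mapped with STAR 2.7.2b to GRCm38.p6 plus human SOD1 cDNA, and counted by strand on RefSeq exons with featureCounts 1.6.4. The authors deposited expected counts per gene: reads on several places or genes were split as fractions, so that 17.3 to 18.1% of all genes listed had a count that was not whole in a given library.

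Counts were rounded for the tests. In R 4.3.3 with edgeR 4.0.16 (filterByExpr, TMM, robust quasi-likelihood fit of the 4 genotypes), 5 comparisons were tested over 20155 genes, adjusted with the Benjamini-Hochberg method and called at 0.05. Profiles were compared with a prior count of 2. Alternatives were DESeq2 1.42.0 with and without a prior, its size factors, other filters, fewer genotypes, a block for replicate numbers, a covariate for Y-linked transcripts, and each library left out; DESeq2 with a prior and without Plekhg5+/+ SOD1-G93A replicate 1 was added after the values were seen. Models were tested on simulated data. Replicates differed by more than counting noise. Members and gene lists were chosen with earlier results of these data known, and 1 gene of the lists is not reported here. All members are named, with called pathway genes, a fixed set of receptors, and the 2 genes most similar to each member. Figures were drawn with Python 3.11.15 and matplotlib 3.10.9.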

Additional observations from a re-analysis of the deposited data

How the results depend on the processing

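Of the 9 members, 0 were called under the edgeR alternatives with all libraries, and 2 (Vegfa and Lif) by DESeq2 with and without its prior in the SOD1-G93A comparison with Plekhg5 intact. For that comparison the genes called were 498 with edgeR, 3 with only the genotypes compared (0 pathway genes), 1149 with DESeq2 without and 1196 with its prior (8 pathway genes each). For SOD1-G93A without Plekhg5 the counts of genes were 1, 0 with at least 10 counts in every library, 20 with only the genotypes compared, 43 without and 41 with the prior of DESeq2 (1 pathway gene each). For Plekhg5 loss in SOD1-G93A mice they were 7, 11 with only the genotypes compared, 75 without and 116 with the prior (1 pathway gene with the prior); within DESeq2 with the prior, leaving out Plekhg5+/+ SOD1-G93A replicate 1 took 116 to 12. For Plekhg5 loss without the transgene they were 6, 34 and 32, and for the interaction 0, 95 and 108 (1 pathway gene each), or 1 without a filter. The cause of these differences was not tested. The labels do not say whether the replicate numbers pair the mice. Correlations between libraries of the same number ranged from -0.11 to 0.32, and those of different numbers from -0.33 to 0.28. With so few libraries per genotype these values cannot decide it. With the replicate number as a block, 631 genes, 6 pathway genes and 0 members were called with Plekhg5 intact.

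With each library left out in turn and edgeR, the genes called numbered 2 to 771 for SOD1-G93A with Plekhg5 intact (4 and 2 without Plekhg5+/+ replicates 1 and 2, 223 and 771 without Plekhg5+/+ SOD1-G93A replicates 1 and 2; members 0 to 1, pathway genes 0 to 8), 1 to 3 without Plekhg5 (pathway genes 0 to 1), 4 to 6 and 5 to 59 for Plekhg5 loss with and without the transgene, and 0 to 40 for the interaction. The counts of 59 and 40 were those without Plekhg5+/+ replicate 3. The 1 member called was Lif (log2 fold change 1.66, adjusted p = 0.0297 with edgeR) without Plekhg5+/+ SOD1-G93A replicate 3. Several values changed sign, and not all were near 0. Larger ones were those of Lif (-0.66) and Hgf (-0.39) for Plekhg5 loss in SOD1-G93A mice with all libraries. With all libraries kept, Cntf with Plekhg5 intact was 0.0191 with Y-linked transcripts as a covariate. Bdnf for SOD1-G93A without Plekhg5 was -0.0017 without a filter, -0.00093 with at least 10 counts and -0.0015 with only the genotypes compared. Leaving out a library gave log2 ranges, with Plekhg5 intact, of -0.23 to 0.11 for Cntf and -0.0488 to 0.0633 for Vegfb. Without Plekhg5 they were -0.11 to 0.0869 for Bdnf, -0.74 to 0.19 for Ntf3, -0.12 to 0.0900 for Vegfa and -0.0627 to 0.38 for Hgf. For Plekhg5 loss in SOD1-G93A mice they were -0.24 to 0.32 for Igf1, -0.0852 to 0.10 for Bdnf, -0.0318 to 0.25 for Cntf, -0.0943 to 0.015 for Vegfb, -0.98 to 0.0742 for Lif and -0.64 to 0.19 for Hgf, and DESeq2 with the prior and without Plekhg5+/+ SOD1-G93A replicate 1 gave 0.178 for Igf1, 0.0445 for Lif and 0.0853 for Hgf. Without the transgene they were -0.11 to 0.25 for Igf1 and -0.0076 to 0.0875 for Vegfb, and for the interaction -0.35 to 0.21 for Igf1.

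At this depth Gdnf and Ntf3, with at most 12 counts per library, allow no statement on modest differences, and the filter of at least 10 counts in every library removed them. Lower-level values under the filter needed no separate test, since all 9 members passed it.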
